A study of Mus musculus with 3 samples.

Results

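The Notch pathway and Hes/Hey genes are a set of 35 genes that covers the receptors, ligands, sugar-modifying enzymes, proteases, nuclear partners, target transcription factors and modulators of Notch signalling. They were chosen by name for their place in the pathway, with no threshold on measured values, but with earlier results of these data known. Every spot that carries one of these names and is not a control was taken. All 35 genes are on the array, with 46 probes and 55 spots. A gene was tested if, in the mutant or in the wild type, a probe of it exceeded background clearly on each of the 3 arrays. This held for 27 of the 35, among 15428 genes tested in all, and 8 were not tested.

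The RNA came from embryoid bodies, which form when embryonic stem cells cluster in suspension and begin to differentiate. There were 3 samples of the Dido3deltaCT mutant, whose Dido3 protein is truncated at its C-terminus, and 3 samples of the wildtype control. Both genotypes were grown in parallel in low attachment plates, without the self-renewal factor LIF, and taken at day 10. Each of 3 two-colour arrays carried 1 mutant and 1 wild type sample, with the mutant in Cy3 on replicates 1 and 3 and in Cy5 on replicate 2. The sample titles call the replicates biological. Whether the samples of a genotype came from separate lines or from repeat cultures of 1 line is not given in the sources used here. The p-values therefore measure the spread between these samples, which may be that of repeat cultures of 1 line.

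Notch receptors are activated by membrane-bound Delta and Jagged ligands on a neighbouring cell. Cleavage by an ADAM protease and then by gamma-secretase frees the intracellular part of the receptor, which enters the nucleus and joins the DNA-binding protein RBPJ and a Mastermind co-activator to switch on target genes. The best known targets encode the Hes and Hey repressors, which hold back differentiation genes in neural progenitors, time the formation of somites and take part in the development of arteries.

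The binding site of RBPJ has the core TGGGAA, and its longer form GTGGGAA is found in well-studied Hes promoters. Both were searched on both strands of the RefSeq promoter windows of assembly GRCm38.p6, from 250 bases before to 50 after each start site. Of the 35 members 28 had at least 1 window. No window was found for the other 7, Dtx4, Hes1, Hes2, Hes3, Hey1, Heyl and Mfng, so these were not searched. The shares below refer to the 28 members with a window. The longer form was present in 5 of the 35 windows of these members (14.3%), those of Hes5, Hes7, Hey2, Lfng and Psen2, against 6.38% of all 32851 windows. The core, which lies within the longer form, was present in 25.7% of member windows and 25.6% of all windows. The E-box CACGTG, a sequence bound by many basic helix-loop-helix factors, was present in 11.4% of member windows, those of Adam10, Lfng, Nrarp and Psen2, and in 7.15% of all windows. A match is a description of the letters and not a measured binding site.

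The 250 bases before the start site are shown for Hes5, Lfng and Hes7, the members of the Hes and fringe families whose window holds the longer form there and whose own level is described below. They lie at chr4:154960673-154960922, chr5:140607091-140607340 and chr11:69120203-69120452 of GRCm38.p6, all on the plus strand. Capitals mark GTGGGAA or its reverse complement.
Hes5: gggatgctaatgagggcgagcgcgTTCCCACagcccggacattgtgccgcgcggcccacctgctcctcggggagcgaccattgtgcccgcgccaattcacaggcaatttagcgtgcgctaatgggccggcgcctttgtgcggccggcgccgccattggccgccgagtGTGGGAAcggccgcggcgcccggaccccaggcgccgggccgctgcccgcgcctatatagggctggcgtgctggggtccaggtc
Lfng: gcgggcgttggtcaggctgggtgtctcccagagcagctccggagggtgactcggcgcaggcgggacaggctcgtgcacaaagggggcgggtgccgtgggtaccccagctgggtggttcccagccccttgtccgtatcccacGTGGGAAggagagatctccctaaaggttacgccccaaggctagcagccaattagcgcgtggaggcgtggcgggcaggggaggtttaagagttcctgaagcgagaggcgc
Hes7: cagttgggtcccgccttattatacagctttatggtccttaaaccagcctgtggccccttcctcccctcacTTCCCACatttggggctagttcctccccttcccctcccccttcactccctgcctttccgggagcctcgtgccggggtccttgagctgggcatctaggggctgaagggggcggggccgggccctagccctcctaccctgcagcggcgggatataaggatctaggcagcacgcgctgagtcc
Hes5 holds the site at −226 to −220 on the minus strand and again at −83 to −77 on the plus strand. In Lfng the site at −109 to −103 overlaps a CACGTG E-box at −112 to −107. Hes7 holds 1 site, at −180 to −174 on the minus strand.

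The share of spots that exceeded background clearly was 46.5% to 62.5% for mutant RNA and 48.5% to 74.4% for wild type RNA. The probe used for Dido1, the mutated gene, gave log2 ratios of 1.57, 2.16 and 1.48 on replicates 1, 2 and 3 (adjusted p = 0.0580, limma), and whether it lies in the part removed by the truncation was not determined. Replicate 2 stood apart from the others. Its ratios correlated with those of replicates 1 and 3 at 0.151 and 0.180, while replicates 1 and 3 correlated at 0.879. These values describe 15428 genes on shared arrays, and genes are not independent replicates. Replicate 2 is also the array with swapped dyes, so that a difference in these samples and a dye effect cannot be told apart.

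Among the 27 tested members, 0 were called higher and 0 lower at an adjusted p under 0.05 (limma, Benjamini-Hochberg over all genes tested), where 0.207% of all genes were called higher and 0.0907% lower. At an unadjusted p under 0.05 there were 10 members, 4 higher and 6 lower, against a background of 22.7% of all genes. At a looser adjusted p under 0.1 there were 7 members, against a background of 8.02% of all genes. Dtx1, Rbpj and Notch4 were the 3 with higher mean ratios and Adam10, Maml3, Dll1 and Hes5 the 4 with lower ones. The median log2 ratio of the tested members was −0.34, with array medians of −0.56, 0.10 and −0.55, and the median over all genes was 0.03. With probes required above background in both genotypes on every array, 23 members were left and their median was 0.02.

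Counted by direction alone, 5 members lay above 0 on all 3 arrays and 8 below 0 on all 3. The 13 members of 27 compare with 44.3% of all genes that kept 1 sign. The mutant and wild type levels did not overlap for 3 members that were higher in the mutant, Notch4, Rbpj and Dtx1, against a background of 10.9%. They did not overlap for 8 members that were lower, Dll1, Jag1, Adam10, Maml1, Maml3, Hes5, Hey1 and Nrarp, against a background of 10.5%. Notch4 passed the filter on dim probes through the mutant alone, and Dll1, Maml3 and Nrarp through the wild type alone, so these 4 were open to such a difference by selection. In RNA from whole embryoid bodies, fewer cells of a type and less RNA per cell cannot be told apart.

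**Figure D1:**
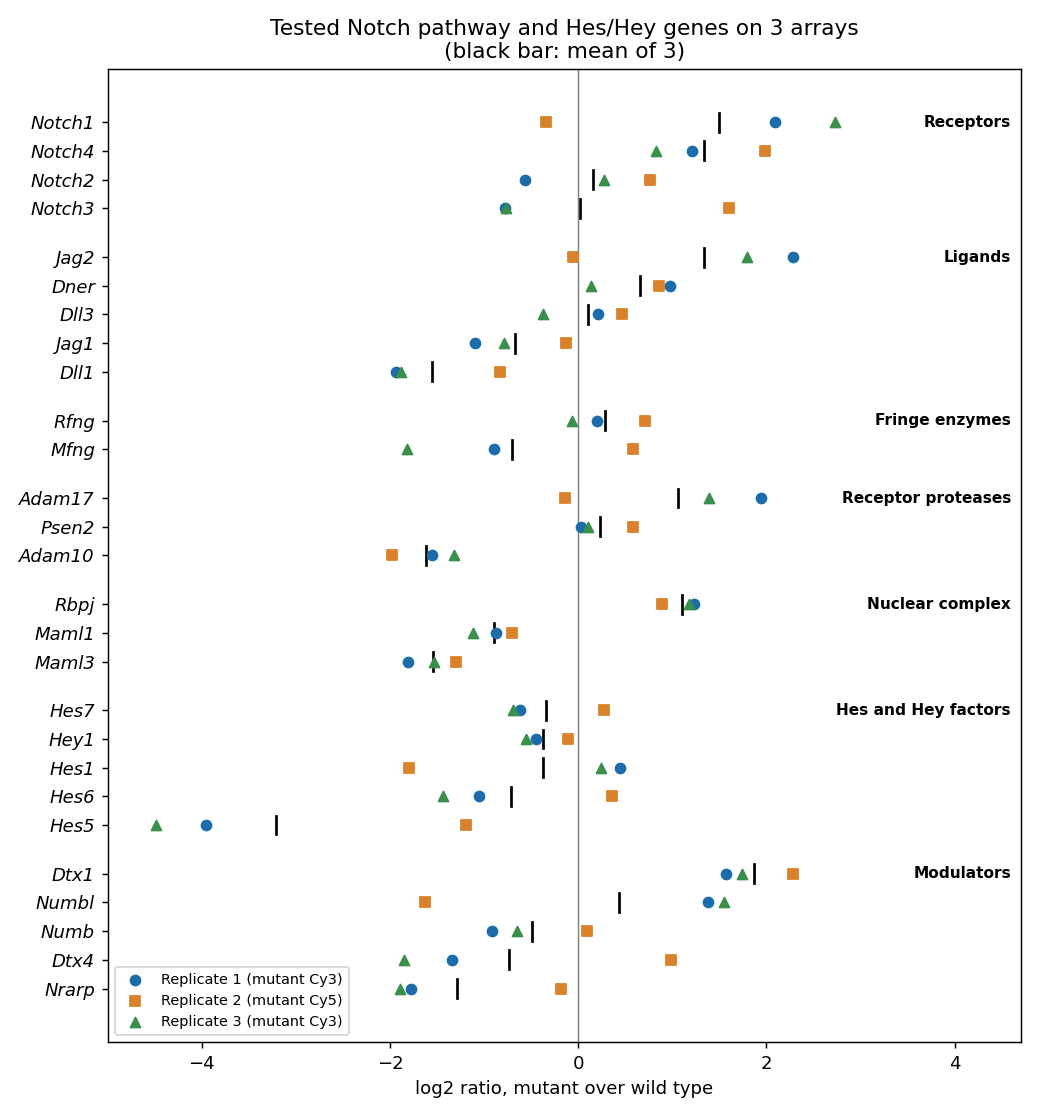
Log2 ratio of mutant over wild type on each of the 3 arrays (x axis) for the 27 tested members, grouped by role (y axis), with the mean as a black bar. Hes5 has the lowest mean at −3.21 and Dtx1 the highest at 1.86, and the replicate 2 squares lie apart from the other symbols for Notch1, Jag2, Adam17, Hes1, Numbl and Dtx4.

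Hes5, a repressor of neuronal differentiation in neural progenitors, had the largest difference among the tested members. Its normalized log2 intensities were 6.87, 7.54 and 8.07 in mutant replicates 1, 2 and 3, against 10.83, 8.73 and 12.56 in wild type replicates 1, 2 and 3. Every mutant value lay below every wild type value, and the wild type sample of replicate 2 was the lowest of its genotype. The mean log2 ratio was −3.21 (SE 0.68, adjusted p = 0.0843, limma), 9.26-fold lower in the mutant, and the mean of replicates 1 and 3 was −4.22. The probe lies at chr4:154336347-154336406 on mm9, the build of the file headers, and its position within the transcript was not determined here.

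The other Hes and Hey factors had smaller differences. Hes1, the broadly used Hes target of Notch, had log2 intensities of 8.24, 8.41 and 8.08 in the mutant and 7.79, 10.21 and 7.84 in the wild type. The wild type sample of replicate 2 alone was high, so that the ratio was −1.80 on that array and 0.44 and 0.24 on replicates 1 and 3. Hes6, a Hes relative that counteracts Hes1 in neuronal differentiation, had ratios of −1.06, 0.36 and −1.44, with a mean of −0.71 (SE 0.41, adjusted p = 0.373). Hes7, a component of the somite clock, had ratios of −0.61, 0.27 and −0.69 (mean −0.34, adjusted p = 0.542), and its levels overlapped between the genotypes. Hey1, a target in vessels and other tissues, had log2 intensities of 10.80, 11.18 and 11.20 in the mutant and 11.24, 11.29 and 11.76 in the wild type. These levels did not overlap, by a narrow margin, and the mean ratio of −0.37 (SE 0.25) had an adjusted p of 0.429.

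The remaining 4 factors of this family were too dim to test. Hes2 was well above background on 2 mutant and 2 wild type arrays, Hes3 on 0 mutant arrays and 1 wild type array, Hey2 on 1 mutant and 2 wild type arrays, and Heyl on 0 mutant and 2 wild type arrays. Heyl was 1.03-fold lower in the mutant by means with a floor, a difference that was not tested. Its ratio was 0.25 on replicate 2 and below 0 on replicates 1 and 3. For this fold the mutant sample of each array is given the lowest signal of probes well above background, or its own where higher. The fold is not a strict lower bound, because the wild type mean includes an array not above background. The fold is also open to dye bias because the dyes were not swapped equally.

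The receptors are single-pass proteins that carry the signal from the membrane to the nucleus. Notch1 had log2 intensities of 16.06, 14.20 and 15.56 in the mutant, against 13.96, 14.55 and 12.83 in the wild type. The mutant was higher on replicates 1 and 3, with ratios of 2.09 and 2.73, and slightly lower on replicate 2, at −0.35. The mean of 1.49 (SE 0.63) had an adjusted p of 0.247. A second Notch1 probe, singled out after its values were seen, gave ratios of 2.14, 0.15 and −0.01, so that replicate 3 differed between the probes.

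Notch4, a receptor mainly of endothelial cells, had log2 intensities of 9.06, 8.80 and 9.14 in the mutant and 7.85, 6.81 and 8.31 in the wild type. All mutant values lay above all wild type values, and the widest gap was on replicate 2. The mean log2 ratio was 1.34 (SE 0.32, adjusted p = 0.0997, limma), a 2.53-fold higher mean, with the probe at chr17:34725120-34725179 on mm9. Notch2 had ratios of −0.56, 0.76 and 0.27 with a mean of 0.16 (adjusted p = 0.810), and a dim second probe had a mean of −0.14. Notch3 had ratios of −0.78, 1.60 and −0.77 with a mean of 0.02 (adjusted p = 0.989), so replicate 2 had the opposite sign to the other arrays.

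Among the ligands, Dll1, which acts between neural precursors and in the presomitic mesoderm, was measured by 10 spots of 1 probe. Its log2 intensities were 7.12, 7.18 and 7.52 in the mutant, against 9.06, 8.02 and 9.40 in the wild type. The groups did not overlap, and the wild type sample of replicate 2 was the lowest of the wild type values. The mean ratio was −1.55 (SE 0.32, adjusted p = 0.0806, limma), 2.93-fold lower, and the mean of replicates 1 and 3 was −1.91. The probe lies at chr17:15504623-15504682 on mm9, and a second, dim Dll1 probe, not above background on any array, had a mean ratio of 0.03.

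Jag1 and Jag2 encode the Jagged ligands. Jag1 had log2 intensities of 8.46, 8.43 and 8.56 in the mutant and 9.55, 8.56 and 9.34 in the wild type. The highest mutant and lowest wild type values nearly met, and the mean ratio was −0.67 (SE 0.29, adjusted p = 0.256). Jag2 had log2 intensities of 9.70, 8.55 and 9.69 in the mutant and 7.41, 8.61 and 7.90 in the wild type. The mutant was higher on replicates 1 and 3 and level with the wild type on replicate 2, where the ratio was −0.06, and the mean was 1.34 (SE 0.50, adjusted p = 0.208). Dll3, a divergent Delta protein that inhibits Notch in the cell that makes it, had a mean ratio of 0.10 (adjusted p = 0.855). Dner, a Delta-like protein of neurons, had ratios of 0.98, 0.86 and 0.14 with a mean of 0.66 (adjusted p = 0.252). Dll4, a ligand of arterial endothelium, was well above background on 0 mutant arrays and 1 wild type array.

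Fringe enzymes add sugars to the receptors and shift their response between Delta and Jagged ligands. Lfng, which also cycles in the somite clock, was well above background on 0 mutant arrays and 2 wild type arrays. Its level was 1.41-fold lower in the mutant by the same calculation as for Heyl, with the same limit, and this difference was not tested. Its ratios were −0.82, −0.08 and −1.06. Mfng had log2 intensities of 10.45, 10.10 and 10.52 in the mutant and 11.35, 9.52 and 12.33 in the wild type. The mutant values were close together while the wild type values were spread, lowest on replicate 2, and the mean ratio was −0.71 (SE 0.50, adjusted p = 0.452). Rfng had ratios of 0.20, 0.71 and −0.07 with a mean of 0.28 (adjusted p = 0.579), and a dim second probe of it had a mean of −0.08.

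The proteases that cleave the receptor had mean ratios of both signs. Adam10, the sheddase of ligand-activated Notch, had log2 intensities of 9.73, 10.02 and 9.15 in the mutant, against 11.29, 12.00 and 10.48 in the wild type. Every mutant value lay below every wild type value, and the 3 arrays gave close ratios of −1.56, −1.98 and −1.32. The mean was −1.62 (SE 0.26, adjusted p = 0.0600, limma), 3.07-fold lower, with the probe at chr9:70627859-70627918 on mm9. Adam17, a related sheddase of many membrane proteins, had log2 intensities of 10.81, 8.72 and 10.31 in the mutant and 8.87, 8.86 and 8.93 in the wild type. On this probe the wild type values were nearly equal and the mutant was higher on replicates 1 and 3 only. The mean ratio was 1.06 (SE 0.45, adjusted p = 0.250, limma). A second Adam17 probe gave ratios of 1.69, −0.24 and 1.49, but its wild type levels of 7.14, 8.81 and 7.97 were spread. Psen2, a catalytic subunit of gamma-secretase, had a mean ratio of 0.24 (adjusted p = 0.620). Ncstn, which encodes the nicastrin subunit of the same complex, was well above background on 0 mutant arrays and 1 wild type array.

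In the nuclear complex the DNA-binding protein and the tested Mastermind genes had opposite signs. Rbpj had log2 intensities of 12.33, 12.23 and 12.48 in the mutant, against 11.10, 11.35 and 11.30 in the wild type. The values of this probe were tight in both genotypes and did not overlap. Its mean ratio was 1.10 (SE 0.24, adjusted p = 0.0878, limma), 2.14-fold higher, with the probe at chr5:54048503-54048562 on mm9. A second Rbpj probe, above background on all 3 arrays in both genotypes, had a mean of 0.49. Its levels overlapped, at 7.11, 8.36 and 7.49 in the mutant and 6.68, 8.03 and 6.77 in the wild type. With all probes tested its adjusted p was 0.314 (limma).

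Maml3 had log2 intensities of 7.60, 7.52 and 7.19 in the mutant and 9.40, 8.82 and 8.72 in the wild type. The groups did not overlap, and the 3 arrays gave similar ratios of −1.80, −1.30 and −1.53. The mean was −1.54 (SE 0.25, adjusted p = 0.0600, limma), 2.92-fold lower, with the probe at chr3:51491665-51491724 on mm9. The 2 further Maml3 probes were dim and had means of −0.12 and 0.22. Maml1 had log2 intensities of 12.52, 12.45 and 12.26 in the mutant and 13.39, 13.15 and 13.38 in the wild type. These also did not overlap, with a mean ratio of −0.90 (SE 0.24, adjusted p = 0.122). Maml2 had 2 dim probes, of which 1 was above background on 1 wild type array.

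The modulators act on the receptor or its complex. Dtx1, an E3 ubiquitin ligase of the Deltex family that binds the intracellular part of Notch, had the smallest p of the tested members. Its log2 intensities were 11.73, 11.29 and 10.75 in the mutant, against 10.16, 9.00 and 9.01 in the wild type. Every mutant value was above every wild type value, and the ratios were 1.57, 2.29 and 1.74. The mean was 1.86 (SE 0.27, adjusted p = 0.0559, limma), 3.64-fold higher, with the probe at chr5:121130278-121130337 on mm9. Its relative Dtx4 had ratios of −1.34, 0.99 and −1.85 with a mean of −0.73 (SE 0.60, adjusted p = 0.515), so the sign turned on replicate 2.

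Nrarp, a target of Notch that feeds back on the nuclear complex, had log2 intensities of 6.78, 7.21 and 7.28 in the mutant and 8.55, 7.39 and 9.17 in the wild type. The groups did not overlap, but on replicate 2 the genotypes were close, with a ratio of −0.18. The mean was −1.28 (SE 0.42, adjusted p = 0.165), and that of replicates 1 and 3 was −1.83. Numb and Numbl encode membrane-associated inhibitors of Notch that are important in neural progenitors. Numb had ratios of −0.92, 0.10 and −0.65 with a mean of −0.49 (adjusted p = 0.391). Numbl had ratios of 1.37, −1.63 and 1.54, so that its mean of 0.43 (SE 0.69, adjusted p = 0.742) joined opposite signs.

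**Figure D2:**
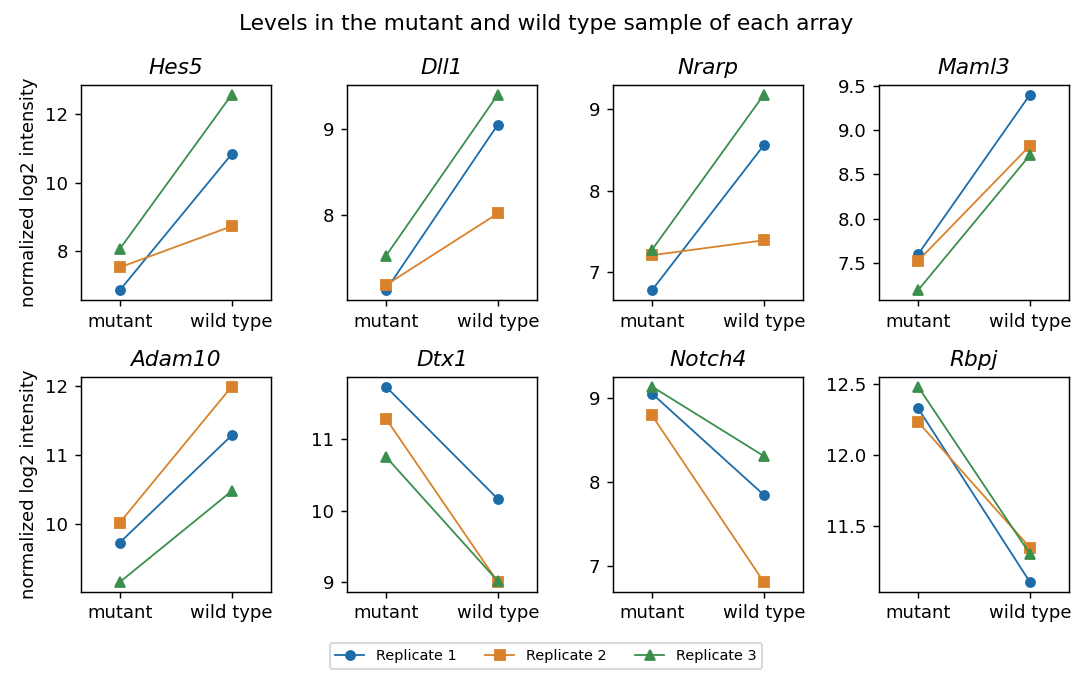
Normalized log2 intensity (y axis, scaled per panel) in the mutant and wild type sample of each array (x axis), with a line joining the samples of an array, for 8 members whose levels did not overlap. Hes5, Dll1, Nrarp, Maml3 and Adam10 are lower in every mutant sample and Dtx1, Notch4 and Rbpj higher, and for Hes5, Dll1 and Nrarp the replicate 2 line is the flattest.

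For the members, as over all genes, replicates 1 and 3 were more alike than either was to replicate 2. The sign was shared by replicates 1 and 3 for 24 of the 27 members, by replicates 1 and 2 for 15 and by replicates 2 and 3 for 14. Over all genes the shares for these pairs were 84.3%, 51.3% and 53.1%, so the members were near the background. Without replicate 2, limma called 7 members higher and 13 lower at an adjusted p under 0.05, where 47.3% of all genes were called. The 7 higher members were Notch1, Notch4, Jag2, Adam17, Rbpj, Dtx1 and Numbl. The 13 lower ones were Notch3, Dll1, Jag1, Mfng, Adam10, Maml1, Maml3, Hes5, Hes6, Hes7, Nrarp, Numb and Dtx4. Both remaining arrays carry the mutant in Cy3, so genotype and dye cannot be told apart in these calls.

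With all 3 arrays and a term for the dye, 6 members were called higher and 7 lower, where 30.8% of all genes were called. The 6 were Notch1, Notch4, Jag2, Adam17, Rbpj and Dtx1, and the 7 were Adam10, Dll1, Hes1, Hes5, Maml1, Maml3 and Nrarp. Replicate 2 is the 1 array of its dye orientation, so this fit takes its error from the closeness of replicates 1 and 3 alone. Under that term Hes5 had a ratio of −2.71 (adjusted p = 0.0027), Notch1 1.03 (adjusted p = 0.0172) and Hes1 −0.73 (adjusted p = 0.0247). Hes1 was called lower although its ratios were above 0 on replicates 1 and 3. Of the 13 members called under this term, Notch4, Dtx1, Rbpj, Dll1, Adam10, Maml1, Maml3, Hes5 and Nrarp had 1 sign on all 3 arrays, while Notch1, Jag2 and Adam17 were slightly below 0 on replicate 2.

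**Figure D3:**
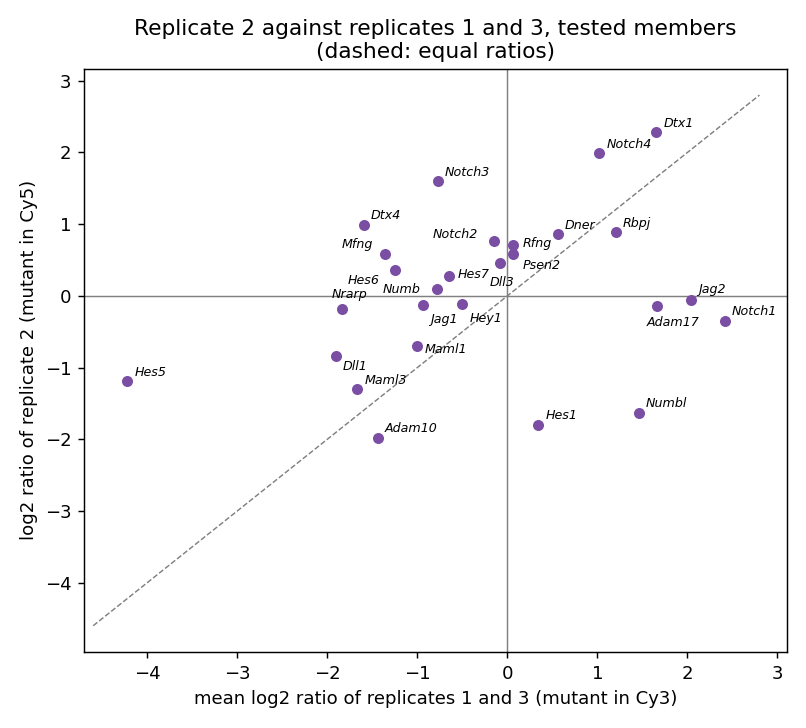
Log2 ratio of mutant over wild type on replicate 2 (y axis) against the mean of replicates 1 and 3 (x axis), 1 point for each of the 27 tested members, with equal ratios dashed. Dtx1, Rbpj, Adam10, Maml1 and Maml3 lie near the dashed line, and Hes5 lies above it at −4.22 and −1.19. Notch1, Notch2, Notch3, Dll3, Jag2, Mfng, Adam17, Hes1, Hes6, Hes7, Numb, Numbl and Dtx4 have opposite signs on the axes.

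Other core genes of the pathway, a list of 45 chosen for their known roles, had 37 tested members, of which 0 were called higher and 1 lower. The called gene was Dlk1, a Delta-like membrane protein that lacks the receptor-activating domain and is abundant in many embryonic tissues. Its log2 intensities were 8.83, 11.46 and 9.78 in the mutant, against 13.26, 14.86 and 14.62 in the wild type. Every mutant value was below every wild type value, and the ratios were −4.43, −3.40 and −4.83. The mean was −4.22 (SE 0.35, adjusted p = 0.0417, limma), 18.6-fold lower.

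The next genes of that list by p were Aph1b, a gamma-secretase subunit, at −1.15 (adjusted p = 0.0788), Dtx3l, a Deltex relative, at 1.25 (adjusted p = 0.0911), Tle4, a Groucho co-repressor used by Hes factors, at 0.98 (adjusted p = 0.121), and Aak1, a kinase of endocytosis, at −0.94 (adjusted p = 0.123). None of these 4 passed the threshold. Aph1b passed the filter on dim probes through the wild type alone, so it was open to a lower ratio by selection. The median of the list was 0.06. The rest of the list held further parts of gamma-secretase, E3 ligases, co-repressors and acetyltransferases with mean ratios between −1.03 and 0.93.

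Genes that Hes factors and Notch act on in other settings were mostly dim or did not pass the threshold. Of 10 proneural and related neuronal genes 2 were tested, and 0 were called. Insm1, a zinc-finger factor of new neurons, had ratios of −1.74, −0.73 and −3.11 (mean −1.86, adjusted p = 0.119), and Neurog3 had a mean of 0.54 (adjusted p = 0.523). Neurog1, Neurog2 and Atoh1 were among those too dim to test.

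Of 16 segmentation clock and somite genes 8 were tested and 0 called. Snai1, a zinc-finger repressor of epithelial genes, had ratios of −3.06, −1.84 and −2.09 (mean −2.33, adjusted p = 0.0559), and Nkd1, a Wnt feedback inhibitor, a mean of −1.51 (adjusted p = 0.0676). Tcf15, a somite transcription factor, had a mean of 1.74 (adjusted p = 0.0607) and Meox1, another one, 0.78 (adjusted p = 0.151). Meox1 passed the filter on dim probes through the mutant alone, so it was open to a higher ratio by selection. Of 14 arterial and endothelial genes 10 were tested and 0 called, with a median of −0.17. Cdh5, which encodes VE-cadherin, had a mean of −1.49 (adjusted p = 0.0630), and the receptors Tek, Kdr and Flt1 had means of −0.68, −0.61 and −0.66. These were the genes of smallest p, and of the 10 tested genes 6 had a mean below 0 and 4 above it. Cdh5, Tek, Nrp1 and Gja4 passed the filter on dim probes through the wild type alone, and Cxcr4 and Pecam1 through the mutant alone.

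Markers of 6 cell types were set beside these members, and calls were made in the pluripotent list alone. For neural progenitors 6 of 8 markers were tested, 0 were called, all 6 had a mean ratio below 0 and the median was −2.93. Pax3, Zic1, Fabp7 and Msi1 passed the filter on dim probes through the wild type alone, so they were open to lower ratios by selection. The mean log2 level over the 6 tested markers was between 7.50 and 7.74 in the mutant samples. In wild type replicates 1, 2 and 3 it was 10.99, 8.54 and 11.40. The wild type sample of replicate 2 was the lowest wild type sample for this list and for 17 of the 27 tested members. Among them were Hes5, Dll1 and Nrarp but also Notch4 and Dtx1, which had higher mean levels in the mutant. The share over all genes was not counted, so this is not a result about the members. That wild type sample had 48.5% of spots clearly above background, against 74.4% and 63.3% in wild type replicates 1 and 3. The wild type sample of replicate 2 was also the lowest for the neuron, endothelium and pluripotent cell markers. For the extraembryonic endoderm and paraxial mesoderm markers it was the highest wild type sample, at 14.17 and 7.81. The transcription factors of early neural tissue in the neural progenitor list include Sox1 and Zic1. Sox1 had a mean ratio of −4.04 and Zic1 of −5.41, and Pax6 and Pou3f2 were too dim to test. Fabp7 had a mean of −3.83 and Pax3 of −2.03. Nes and Msi1 had smaller means of −0.90 and −0.13, and their ratios on replicate 2 were above 0, at 0.56 and 0.22. The part of such cells in the Hes5, Dll1 and Nrarp values was not tested.

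The 6 neuron markers were all tested, 0 were called and their median was 0.10. All 10 extraembryonic endoderm markers had mean ratios below 0, with a median of −2.37 and 0 called, and their mean log2 level ran between 9.71 and 12.49 in the mutant, against 12.97 and 14.17 in the wild type. For endothelium 5 of 8 markers were tested, 0 called, with a median of −0.66, while Notch4 had a mean ratio above 0. Cdh5 and Tek passed the filter on dim probes through the wild type alone, and Pecam1 and Notch4 through the mutant alone. This contrast was therefore open to selection. For paraxial mesoderm 3 of 6 were tested, 0 called, with a median of 0.78. That median is the value of Meox1, which passed the filter on dim probes through the mutant alone. It was therefore open to a higher value by selection. Of 6 pluripotent cell markers 2 were called higher, Zfp42 at 3.17 and Dppa5a at 2.67 (adjusted p = 0.0417 for each, limma), and the median was 1.62. The part of these cell types in the members' values was not tested.

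**Figure D4:**
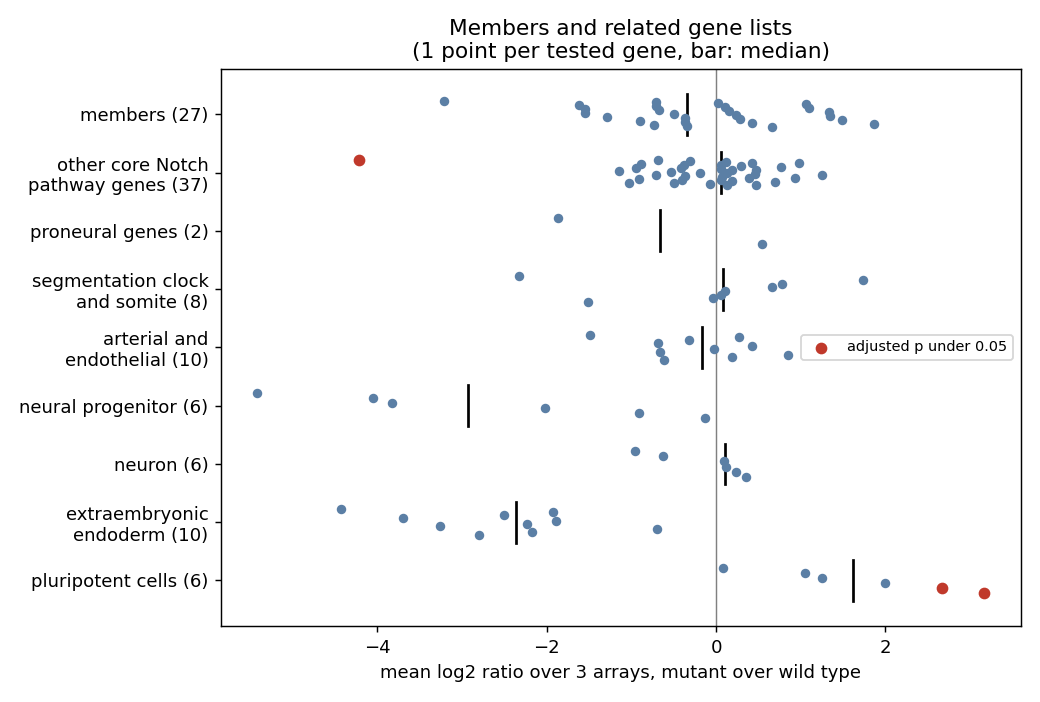
Mean log2 ratio of mutant over wild type over 3 arrays (x axis), 1 point per tested gene, for the members and 8 related lists (y axis, number tested in brackets), with the median as a black bar and genes called at an adjusted p under 0.05 in red. The members spread to both sides of 0 around a median of −0.34, while neural progenitor markers have a median of −2.93 and pluripotent markers of 1.62.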

How the data were processed

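The deposited scanner files, which per the file headers come from Agilent Feature Extraction 10.7.3.1 with probe positions on mm9, hold the mean intensity and median background intensity of both dyes per spot, not normalized, and other columns of flags that mark spots above background, saturated or outlying. The files also hold processed intensity values that per the file headers are background-subtracted and dye-normalized. A value table deposited by the authors holds log2 ratios per spot, and the submitters' processing notes name limma. Set against the scanner files over spots, its replicate 1 column had r = 0.915 with the file of replicate 3 and 0.771 with the file of replicate 1. Its replicate 3 column had r = 0.983 with the file of replicate 1 and 0.842 with the file of replicate 3. Replicate numbers here are those of the scanner files, and whether replicates 1 and 3 are exchanged there or in the table was not settled. Means over the 3 arrays do not depend on this. Matched to the scanner values, the table runs mutant over wild type. Its column medians were −0.04, 0.01 and −0.01, and whether each array was centred was not established.

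From the scanner files, R 4.3.3 and limma 3.58.1 were used. Signals were background-corrected by normexp with an offset of 50, which pulls ratios of dim probes towards 0, and each array was loess-normalized, in which 1377 control spots had weight 0. On replicate 3, 7 spots with an outlying background over 10 times the array median took that median in the background fit and were left out, as were outlier-flagged spots. Ratios were turned to mutant over wild type and averaged per probe. Levels are channel values after Aquantile scaling. The reference table, used to update symbols, held the accession of 26761 of 39429 probes. A probe was kept if either genotype exceeded background clearly on each of the 3 arrays (19142 probes), and the brightest one stood for its gene (15428 genes). The test of ratios against 0 used lmFit and eBayes, two-sided, Benjamini-Hochberg adjusted, with 2 residual and 3.04 prior degrees of freedom, so the small number of arrays limits the precision. The array pairs its samples by design. The procedure was tested on simulated data. All arrays lie on 1 slide, so slide could not be tested as a batch.

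The members and lists were chosen with earlier results of these data known. Every member is accounted for, further probes are given where their sign differs from that of the brightest probe or their ratio by over 1, and of each other list every called gene and otherwise up to 4 genes of smallest p are named. Markers of cell types are named as examples.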

Additional observations from a re-analysis of the deposited data

How the results depend on the processing

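The count of members called was 0 in each direction under every alternative except 2. With a dye term it was 6 higher and 7 lower, and leaving out 1 replicate gave 0 to 7 higher and 0 to 13 lower, with the calls coming without replicate 2. These 2 fits rest their error on replicates 1 and 3 alone. Over all genes the counts, 32 higher and 14 lower, depended on most settings. They were 0 and 0 with all spots kept in the background model, where 1685 genes had an unadjusted p under 0.05 (limma), and also 0 and 0 with the deposited value table, where 3057 did. They were 86 and 57 with an offset of 16, 243 and 139 with the scanner's processed signals, 4 and 3 with median centring, 63 and 46 with scale normalization between arrays, and 2448 and 2299 with the dye term. Without a filter on dim probes they were 1 and 1, with both channels required above background 3 and 1, with the mean over probes 67 and 36, and with all probes tested 75 and 43. With the pairing by array dropped (no replicate block) they were 173 and 91. Leaving out 1 replicate gave 3 to 3962 higher and 2 to 3343 lower, the high ends without replicate 2.

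The median ratio of the tested members ran between −0.50 and 0.02. Median centring moved the median of all genes to −0.22 from 0.03, and under it Notch2 (−0.19), Notch3 (−0.31), Dll3 (−0.25), Rfng (−0.070) and Psen2 (−0.12) turned below 0. Relative to that shift all but Notch3 and Dll3 stayed above the median gene. Numbl turned to −0.084 with the dye term. Leaving out 1 replicate, Numbl ran between −0.13 and 1.46, Notch2 between −0.15 and 0.52, Notch3 between −0.77 and 0.41, Dll3 between −0.080 and 0.34, and Hes1 between −0.78 and 0.34, each with a change of sign. The other members kept their sign under each alternative in which they could be tested. The 7 members with an adjusted p under 0.1 did not keep it under each setting. With all spots kept in the background model their adjusted p ran from 0.362 (Hes5) to 0.456 (Dll1) (limma). With the deposited value table it ran from 0.123 (Dtx1) to 0.220 (Notch4) (limma). Sizes moved too, and the ratio of Hes5 ran between −4.23 and −1.72 over the settings. The cause of these changes was not tested. Signal over background limits what can be said of the 8 members that were not tested.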
